A study of Mus musculus with 113 samples.

Results

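Single mouse cells of the first days of neural induction were compared by stage: the 16 cells of stage 2, collected at 38 and 60 h, against the 16 cells of stage 1, collected at 0 and 9 h. Membership followed the names of the deposited cell columns, and the 32 cells are part of 64 single cells, in a series of 113 samples. The study followed the conversion of mouse embryonic stem cells into neural progenitors by RNA sequencing of whole populations and of single cells. All cells came from the R1 line, were passaged once without feeder cells, dissociated, and cultured in GKSR medium as floating embryoid body-like aggregates in Petri dishes, a serum-free protocol known as SFEB. No genetic change and no inhibitor is named for these cells. Cells were picked by hand and their amplified cDNA was made into Nextera XT libraries. Each of the 4 time points has 8 cells and names no second culture, so a time point is 1 sample and no p-value was computed from cells. Values are log10(RPKM + 1), where RPKM is a read count scaled to transcript length and library size, and the authors quantile normalized the RPKM between cells.

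Naive pluripotency, the state of the inner cell mass before implantation, is held in culture by LIF and by transcription factors such as Esrrb, Klf2 and Nanog. On leaving it, cells pass through a formative or epiblast-like state, in which Otx2 and the de novo DNA methyltransferases come up while Pou5f1 and Sox2 are still made. From this state cells can enter the neural lineage or the primitive streak.

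The genes that mark stage 2, *Dnmt3b* and *Otx2*, were both higher in the stage 2 cells. *Dnmt3b*, which encodes a de novo DNA methyltransferase, had a mean log10 value of 0.801 (SD 0.650, 16 cells) in stage 1 and 2.30 (SD 0.418, 16 cells) in stage 2. Its lowest, median and highest cells were at 0.111, 0.201 and 1.51 at 0 h and at 0.148, 1.38 and 1.98 at 9 h, against 1.32, 2.30 and 2.78 at 38 h and 2.00, 2.58 and 2.68 at 60 h. The stages overlapped in part: 13 of the 16 stage 2 cells lay above every stage 1 cell, while 6 stage 1 cells lay within the stage 2 range. The 9 h median lay between those of 0 h and 38 h. *Otx2*, a homeobox factor of the epiblast, averaged 0.405 (SD 0.463) in stage 1 and 1.50 (SD 0.622) in stage 2. From lowest through median to highest, its cells were at 0.0055, 0.239 and 1.48 at 0 h, 0.0615, 0.171 and 1.29 at 9 h, 0.590, 1.34 and 2.10 at 38 h, and 0.410, 1.66 and 2.45 at 60 h. Here 10 of the 16 stage 2 cells lay above all stage 1 cells, and the 9 h median was no higher than that of 0 h.

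Both markers were above 0 in all 32 cells, so the share of cells above 0 does not separate the stages (100% in each, exact Clopper-Pearson 95% interval 79.4 to 100%). Quantile normalization leaves many very small values, and a share above 0.5 RPKM is therefore given as well. *Dnmt3b* passed 0.5 RPKM in 11 of 16 stage 1 cells (68.8%, interval 41.3 to 89.0%) and in all 16 stage 2 cells. *Otx2* passed it in 8 of 16 stage 1 cells (50.0%, interval 24.7 to 75.3%) and in all 16 of stage 2. These intervals cover counting error only. The annotation of the genome build of the files, NCBIM37 (mm9), places *Dnmt3b* at chr2:153475186-153513466 on the plus strand and *Otx2* at chr14:49277354-49287319 on the minus strand. A noncoding transcript, *7530422B04Rik*, overlaps *Dnmt3b* on the other strand, and no source says that the libraries keep strand.

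Detection differed between the time points. The lowest, median and highest cell had 8519, 8972 and 10437 genes above 0 at 0 h, and 6541, 6927 and 9517 at 9 h. At 38 h the numbers were 6942, 8131 and 9474, and at 60 h 8422, 8836 and 10292. The 9 h cells stood lowest, with 6 of 8 under 7500 genes, and 2 cells of 38 h were also under it. Above 0.5 RPKM the cells had 5055 to 5204 genes in stage 1 and 5095 to 5185 in stage 2, but quantile normalization makes such counts nearly equal, so they say nothing about detection. No pair of the 32 cells had identical values, and the correlation of 496 pairs across genes ran from 0.476 to 0.726.

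**Figure D1:**
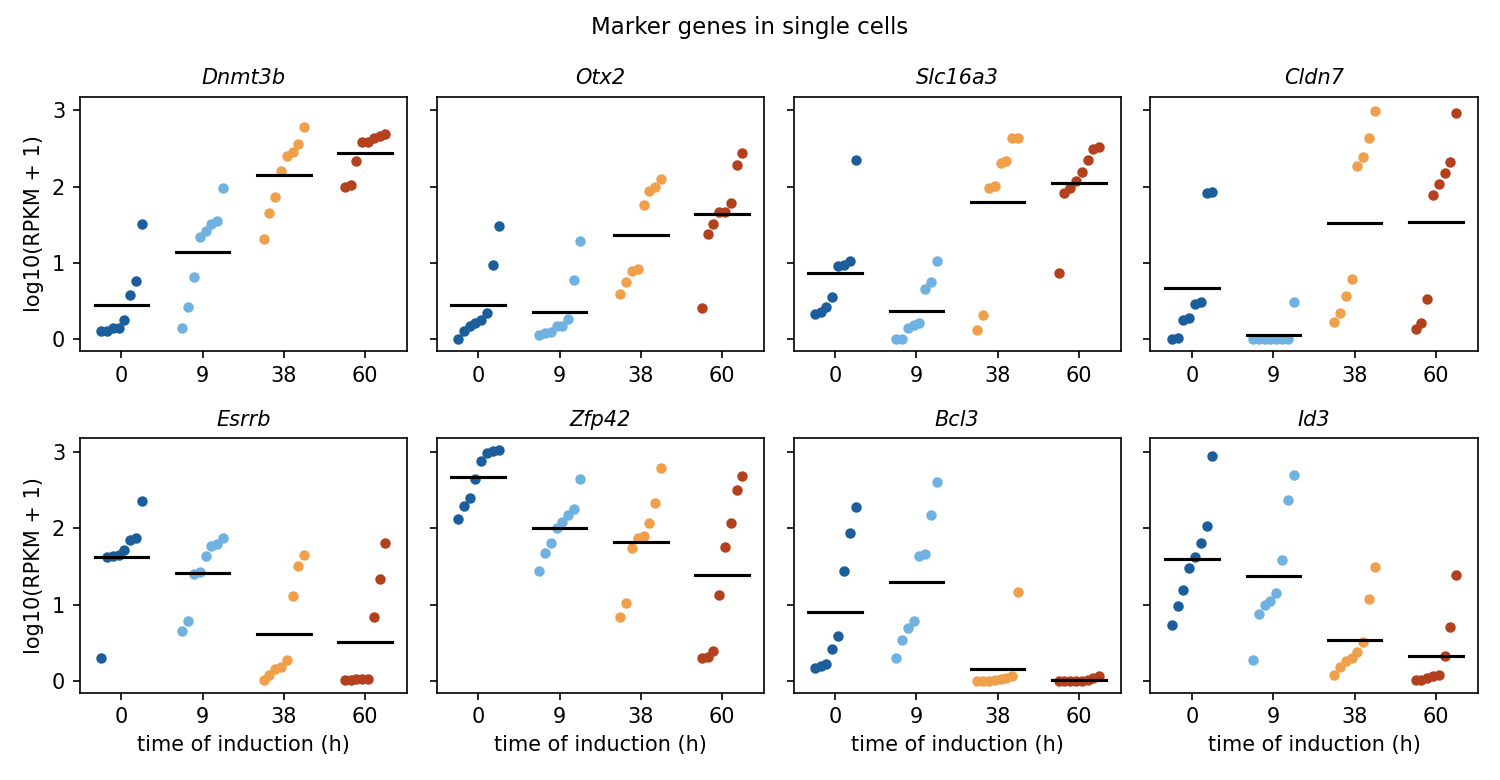
Values of 8 genes in the 32 single cells, log10(RPKM + 1), with time points along the horizontal axis, 1 dot for each cell and a bar at the mean of 8 cells. *Dnmt3b*, *Otx2*, *Slc16a3* and *Cldn7* are higher in the stage 2 cells, *Esrrb*, *Zfp42*, *Bcl3* and *Id3* are lower, and single cells of each time point overlap.

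All genes of the file were then compared by size. A gene was taken as higher or lower in stage 2 when its stage means differed by at least 0.5 on the log10 scale and both time points of stage 2 lay on the same side of both time points of stage 1. By this size rule 236 of 11449 genes were higher in stage 2 (2.06%) and 215 were lower (1.88%), 451 together (3.94%), while the median difference over all genes was -0.00102. At a limit of 0.3 in place of 0.5 the counts were 792 and 687. Another 23 of the 474 genes with a difference of that size had interleaved time points. Only 15 genes were higher by at least 1 and 12 lower by at least 1. *Fam32a* (0.500) stood just inside the limit and *Mapk12* (0.499) just outside among higher genes, as did *Flad1* (-0.500) and *Pim3* (-0.499) among lower ones. The counts depend on having both time points of a stage. They were 489 higher and 611 lower without the 0 h cells, 388 and 378 without those of 9 h, 451 and 368 without those of 38 h, and 377 and 300 without those of 60 h.

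Many genes past the rule were seen in every cell. Of the 236 higher genes 111 were above 0 in all 32 cells, and of the 215 lower genes 92 were, beside 28.0% of all genes. The median share of cells above 0.5 RPKM went from 65.6% to 93.8% for the higher genes and from 87.5% to 50.0% for the lower ones. The rule chose these genes by the same values, so shares that move in these directions follow from the choice. Genes past the rule also had higher levels, with a median stage 1 mean of 0.624 (higher) and 1.09 (lower) against 0.321 for all genes. No gene had all 16 stage 2 cells beyond all 16 stage 1 cells in either direction.

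The step between the stages was no larger than the step inside stage 1. Comparing 8 cells with 8, 1423 genes (12.4%) differed by at least 0.5 between 0 and 9 h, 736 higher and 687 lower at 9 h. Between 9 and 38 h 1325 genes did (11.6%), 643 higher and 682 lower, and between 38 and 60 h 698 genes (6.10%), 381 higher and 317 lower. The low detection of the 9 h cells moves with the first pair of steps, and its part in them was not tested.

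Genes of the formative epiblast had the largest share of higher members among the lists. All lists were written with earlier results of these data known, and this one holds both markers, so its rank is no test. Of 20 listed genes, all in the file, 7 were higher and none was lower, beside 2.06% higher and 1.88% lower over all genes. The median difference was 0.388 against -0.00102 for all genes. Besides *Dnmt3b* and *Otx2* they were *Pim2*, *Sall2*, *Cldn6*, *Dnmt3a* and *Pou3f1*. *Pim2*, a serine/threonine kinase, averaged 1.38 in stage 1 and 2.48 in stage 2 and was above 0 in all 32 cells. *Sall2*, a zinc finger factor, was close to 0 in stage 1, with a mean of 0.0165, and reached 0.642 in stage 2. It passed 0.5 RPKM in 0 of 16 stage 1 cells (upper limit 20.6%) and in 11 of 16 stage 2 cells, and those 11 cells lay above all of stage 1. *Dnmt3a*, the other de novo methyltransferase, went from 0.701 to 1.23.

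Other formative genes stayed under the limit on the mean of log10 values. *Fgf5*, a ligand that marks the epiblast after implantation, differed by 0.471 between stage means, and by 1.07, past the limit, with the log10 of the mean RPKM + 1. Stage 2 cells had their lowest, median and highest values at 0.0138, 0.148 and 1.63 at 38 h and at 0.0133, 0.0361 and 1.81 at 60 h, while the highest of 16 stage 1 cells was at 0.141. It passed 0.5 RPKM in 0 stage 1 cells and 5 stage 2 cells. *Lin28b*, which encodes an RNA-binding protein that blocks let-7 maturation, differed by 0.354, was above 0 in 4 stage 1 cells and 16 stage 2 cells, and lay above all of stage 1 in 14. Its highest stage 1 cell was at only 0.0137, so some of these 14 were near 0 as well, the lowest at 0.0154. *Zic2*, another gene of this list, had a difference of -0.0078.

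Further genes stood among the 12 with the largest increase. *Slc16a3*, a lactate transporter, averaged 0.625 in stage 1 and 1.92 in stage 2. The lowest, median and highest cells were at 0.333, 0.762 and 2.35 at 0 h, 0, 0.205 and 1.03 at 9 h, 0.126, 2.16 and 2.64 at 38 h, and 0.868, 2.13 and 2.52 at 60 h. The stages overlapped: the highest 0 h cell was within the stage 2 range and the lowest 38 h cell within that of stage 1. *Cldn7*, a claudin of tight junctions, was above 0 in 9 of 16 stage 1 cells (56.3%, interval 29.9 to 80.2%) and in all 16 of stage 2, with means of 0.365 and 1.53. The change in this share comes from the 9 h cells: it was above 0 in 8 of 8 cells at 0 h and 1 of 8 at 9 h, and at 0 in the 9 h cell with the most genes (9517). *Car2*, a carbonic anhydrase, went from 1.10 to 2.22, and *Chaf1b*, a subunit of the chromatin assembly factor that loads histones behind the replication fork, from 0.768 to 1.87. *Gdf1*, a partner of Nodal in the TGF-beta family, differed by 1.19.

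The remaining large increases are less certain as single genes. *Gdf1* shares its locus with *Lass1*, *Slc16a3* overlaps *Csnk1d*, *Ftsj2* (difference 1.12) overlaps *Nudt1*, *Ubxn6* (1.10) overlaps *Chaf1a*, and *Hmox2* (1.07) overlaps *5730403B10Rik*, so these values may hold reads of both genes of a pair. *LOC624853*, above 0 in 5 stage 1 cells and 12 stage 2 cells with a difference of 1.36, could not be placed in the annotation.

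Many genes of naive pluripotency were lower. Of 20 listed genes 19 were in the file, 7 were lower and 1 was higher, with a median difference of -0.301. Over all genes 1.88% were lower and 2.06% higher. The lower genes were *Nr0b1*, *Esrrb*, *Klf2*, *Zfp42*, *Dppa3*, *Nanog* and *Tcl1*. *Esrrb*, an orphan nuclear receptor of the naive network, averaged 1.52 (SD 0.521) in stage 1 and 0.566 (SD 0.681) in stage 2. Its lowest, median and highest cells were at 0.303, 1.68 and 2.36 at 0 h, 0.655, 1.53 and 1.87 at 9 h, 0.0144, 0.229 and 1.65 at 38 h, and 0.0095, 0.0284 and 1.81 at 60 h. The highest stage 2 cells were thus at stage 1 level, while 10 of 16 lay below all of stage 1. *Esrrb* was above 0 in all 32 cells, and above 0.5 RPKM in 16 stage 1 cells and 8 stage 2 cells (50.0%, interval 24.7 to 75.3%).

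*Zfp42* (Rex1), a zinc finger gene used as a naive reporter, was lower but still present in every stage 2 cell. Its lowest, median and highest cells were at 2.12, 2.76 and 3.03 at 0 h, 1.44, 2.05 and 2.64 at 9 h, 0.838, 1.89 and 2.78 at 38 h, and 0.299, 1.44 and 2.68 at 60 h. Only 6 of 16 stage 2 cells lay below all of stage 1, all 32 cells stayed above 0.5 RPKM, and without the 0 h cells the difference of -0.734 became -0.404. *Klf2*, a Krüppel-like factor, differed by -0.840, *Nr0b1*, an orphan nuclear receptor, by -1.01, *Nanog* by -0.615 and *Dppa3* by -0.693. *Klf4*, a direct target of LIF signalling, did not pass the rule: its mean was 0.959 at 0 h and 0.189 at 9 h, already at the stage 2 level. *Fbxo15*, with a difference of -0.705, had interleaved time points. *Fgf4*, a ligand that drives the exit from naive pluripotency, was the 1 listed gene past the rule as higher, with a stage 2 mean of 1.20 against 0.654.

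Large decreases were also seen outside the pluripotency network. *Bcl3*, an IkappaB-like cofactor of NF-kappaB, averaged 1.10 (SD 0.841) in stage 1 and 0.0884 (SD 0.289) in stage 2. Cells had their lowest, median and highest values at 0.171, 0.499 and 2.28 at 0 h, 0.305, 1.21 and 2.60 at 9 h, 0, 0.0139 and 1.17 at 38 h, and 0, 0.0002 and 0.0713 at 60 h. The stages hardly overlapped, with 15 of 16 stage 2 cells below all of stage 1. The share above 0.5 RPKM was 93.8% in stage 1 (15 of 16, interval 69.8 to 99.8%) and 6.25% in stage 2 (1 of 16, interval 0.158 to 30.2%). *Gjb5*, a gap junction gene, was above 0 in 15 stage 1 cells and in 1 stage 2 cell.

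*Id3*, an inhibitor of helix-loop-helix factors and a target of BMP signalling, averaged 1.49 in stage 1 and 0.433 in stage 2. Its lowest, median and highest cells were at 0.738, 1.55 and 2.95 at 0 h, 0.277, 1.10 and 2.69 at 9 h, 0.0731, 0.342 and 1.50 at 38 h, and 0.0104, 0.0730 and 1.39 at 60 h, so that 8 stage 2 cells were still within the stage 1 range. *Lmna*, which encodes the nuclear lamins A and C, differed by -1.17, and *Anxa2*, a calcium-dependent membrane-binding protein, by -1.12. *Pcolce*, an enhancer of procollagen processing, differed by -1.35 and *Arrdc4*, an arrestin-domain protein, by -1.13. *Hspb1*, a small heat shock protein, was highest at 9 h, with means of 1.33, 2.39, 1.03 and 0.588 in time order, and its difference of -1.05 was -1.58 without the 0 h cells and -0.519 without those of 9 h. *Fbxo6*, an F-box protein that binds glycoproteins, differed by -1.03. *1110031I02Rik* (-1.23) overlaps *Hexdc*, *Pcolce* overlaps *Fbxo24*, and *Tpt1p* (-1.13) could not be placed, so these values are uncertain as values of single genes.

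Few genes were switched on or off by detection. A gene was called switched when it was above 0 in at least 14 of 16 cells of one stage and at most 2 of 16 of the other. Only *Eomes* and *Alg10b* were switched on (0.0175% of genes), both above 0 in 2 stage 1 cells and 14 stage 2 cells. *Eomes*, a T-box factor of the primitive streak, passed 0.5 RPKM in just 3 stage 2 cells, and *Alg10b*, a glucosyltransferase of N-glycan synthesis, in 3. At 0.5 RPKM in place of 0 no gene was switched on. Switched off were *Cpsf4l*, *Gjb5*, *Tmem86a*, *Efna1* and *Zfp750* (0.0437%). None of these passed 0.5 RPKM in 14 stage 1 cells, so none was switched off at that level, where 4 other genes were. *Cpsf4l* was above 0 in 16 and then 2 cells with means of 0.765 and 0.0013, though it overlaps *D11Wsu47e*, and *Efna1*, the ligand ephrin A1, was above 0 in 14 and then 1.

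Cells of a time point differed in their list means. The mean of the 20 formative genes had its lowest, median and highest cell at 0.251, 0.353 and 0.525 at 0 h, 0.321, 0.467 and 0.665 at 9 h, 0.586, 0.844 and 1.13 at 38 h, and 0.518, 0.823 and 1.27 at 60 h. The mean of the 19 naive genes ran through 0.777, 1.14 and 1.28 at 0 h, 0.834, 1.00 and 1.19 at 9 h, 0.510, 0.566 and 1.22 at 38 h, and 0.344, 0.639 and 1.02 at 60 h. On the formative mean 12 stage 2 cells lay above all of stage 1, on the naive mean 10 lay below all of it, and on the naive minus the formative mean 13 did. By their medians the 60 h cells were no higher than the 38 h cells on the formative list and no lower on the naive list. Whether the spread among cells is progress or measurement noise was not tested.

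Single stage 2 cells stood closer to stage 1 in their list means. Cell 1 of 38 h had a naive mean of 1.22 and a formative mean of 0.586, with *Esrrb* at 1.50 and *Dnmt3b* at 1.32, and it was also a cell of low detection, with 6942 genes above 0. Cell 2 of 60 h had *Esrrb* at 1.81 and *Zfp42* at 2.49 beside *Otx2* at 2.28 and *Dnmt3b* at 2.03. Its naive mean was 0.984 and its formative mean 0.518, the lowest of stage 2, and it had 9211 genes above 0. Across the 16 cells of a stage the naive and formative means had r of -0.589 in stage 1 and -0.723 in stage 2. These describe cells that come from 2 time points and share 1 normalization, and in stage 1 the formative mean also had r of -0.653 with the number of genes above 0.

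**Figure D2:**
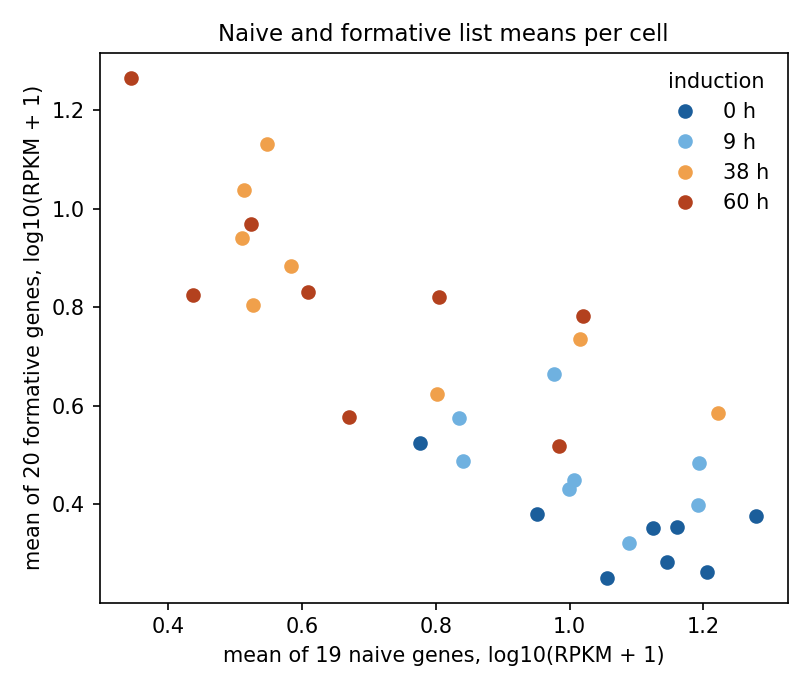
Mean log10(RPKM + 1) of the 20 formative genes (vertical) against that of the 19 naive genes (horizontal), 1 point for each of the 32 single cells. Most stage 2 cells lie to the upper left of the stage 1 cells, and 3 of 16 lie within the range of stage 1 on the difference of both means.

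Core pluripotency genes are shared by naive and later pluripotent cells. Of 14 such genes 1 was higher, *Dppa4* (0.527), and none was lower, with a median of 0.0539. Over all genes 2.06% were higher and 1.88% lower. *Pou5f1*, the central factor of pluripotency, averaged 2.34 in stage 1 and 2.64 in stage 2, and its 9 h mean of 2.01 was below the 0 h mean of 2.66. Its difference of 0.3075 was 0.631, past the rule, without the 0 h cells and -0.0157 without those of 9 h. *Sox2* differed by 0.0453 and *Sall4* by -0.0749. Among 9 genes of DNA methylation 2 were higher, *Dnmt3b* and *Dnmt3a*, and 1 was lower, *Dnmt3l*, the catalytically inactive partner of both enzymes, at 1.88 and 1.25. The maintenance enzyme *Dnmt1* differed by 0.204.

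Signalling lists differed in how many genes passed the rule. The counts in these and the following lists stand beside 2.06% higher and 1.88% lower over all genes. In the BMP list 2 of 10 measured genes were lower, the BMP targets *Id3* and *Id1* (-0.694), and none was higher, with a median of -0.0370. In the Nodal list 3 of 14 were higher and none lower, with 8 differences positive, 6 negative and a median of 0.116. The higher genes include *Foxh1*, the DNA-binding partner of Smad2 (0.754), and *Lefty1*, a Nodal inhibitor (0.565). *Nodal* itself differed by 0.152. In the FGF and ERK list 1 of 14 was higher, *Fgf4*, with a median of 0.102. *Fzd2*, a Wnt receptor (0.776), was the 1 higher gene of 15 in the Wnt list, whose median was 0, and it lay above all stage 1 cells in 10 stage 2 cells. None of 9 genes of the LIF and Stat3 list passed the rule, and their median was -0.242. *Socs3*, the feedback inhibitor of Stat3, went from 0.917 at 0 h to 0.0141 at 9 h and stood at 0.306 and 0.0210 in stage 2.

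Several epithelial genes were higher. Of 16 measured genes of cadherins, tight junctions and epithelial regulators 4 were higher, *Cldn7*, *Epcam* (0.613), *Cldn6* (0.596) and *Esrp1*, an epithelial splicing factor (0.596), and none was lower, with a median of 0.134. *Cdh1*, the E-cadherin gene, had means of 0.714 and 0.976. Of 19 imprinted genes *Snrpn* was higher, at 1.27 and 2.23 with 11 stage 2 cells above all of stage 1, *H19* (-0.533) and *Igf2* (-0.529) were lower, and the median was -0.0013. In the list of Lin28 proteins and let-7 targets none of 10 passed, with a median of 0.192, and of 18 Polycomb genes 1 was lower, *Eed* (-0.521), with a median of 0.0273.

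The cell cycle lists leaned in opposite directions, with 1 and 3 of 24 genes past the rule. Over all 11449 genes 5587 differences were positive and 5826 negative. Of 24 S-phase genes 1 was higher, *Gins2* (0.629), a subunit of the replicative helicase complex, 19 of the 24 differences were positive, and the median was 0.135. Of 24 genes of G2 and M phase 3 were lower, *Cdc20* (-0.627), *Birc5* (-0.610) and *Ube2c* (-0.520), 19 differences were negative, and the median was -0.187. *Cdc20* and *Ube2c* serve the anaphase-promoting complex, and *Birc5* encodes survivin of the chromosomal passenger complex.

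Some stress and metabolic genes passed the rule. Of 19 genes of Atf4 and amino acid supply 4 were lower, *Asns* (-0.810), *Ass1* (-0.714), *Trib3* (-0.610) and *Ddit3* (-0.513), which include the synthetases of asparagine and argininosuccinate, and *Atf4* itself differed by -0.129 (list median -0.0765). Of 14 Trp53 targets 2 were lower, *Gdf15* (-0.667) and *Perp*, with a median of -0.0003. None of 11 immediate early genes passed, with a median of -0.0620. In glycolysis *Slc16a3* was higher and *Pfkp*, a phosphofructokinase, was lower (-0.624) of 21 genes, with a median of 0.158, and in cholesterol synthesis *Pmvk* (0.854) was the only 1 of 21, with a median of 0.122. Of 77 genes of oxidative phosphorylation 3 were lower, *Ndufa4l2* (-0.635), *Sdhb* (-0.566) and *Atp5j* (-0.535), 3.90% beside 1.88% of all genes, and 63 differences were negative, with a median of -0.143. None of 87 ribosomal protein genes passed, though 75 of their differences were negative, with a median of -0.134.

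Some of these values may hold reads of a neighbour. *Cdc20* overlaps *Elovl1*, *Ube2c* overlaps *Tnnc2*, *Ddit3* overlaps *Mars*, *Pfkp* overlaps *Pitrm1*, *Ndufa4l2* overlaps *Shmt2*, *Atp5j* overlaps *Gabpa*, *Dnmt3l* overlaps *Aire*, *Gins2* overlaps *Gse1* and *Gm20388*, *Tubb3* overlaps *Gm20388*, *Zfp750* overlaps *Tbcd* and *Col1a1* overlaps *Gm17329*. *Bcl3*, *Anxa2*, *Dnmt3a* and *Esrp1* overlap only noncoding transcripts.

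Some calls rest on single time points. Without the 0 h cells *Zfp42*, *Dppa4*, *Dnmt3a*, *Dnmt3l*, *Tubb3*, *Esrp1*, *Gdf15*, *Ass1*, *Trib3* and *Pfkp* no longer passed, with differences from -0.483 (*Dnmt3l*) to 0.463 (*Esrp1*). Without the 9 h cells *Fgf4*, *Sparc*, *Epcam*, *Cldn6*, *Eed*, *Ube2c*, *Perp*, *Pmvk*, *H19*, *Igf2* and *Atp5j* no longer passed, from -0.460 (*Ube2c*) to 0.495 (*Fgf4*). Without the 8 cells under 7500 genes, 6 of 9 h and 2 of 38 h, 14 named genes did not pass. *Nr0b1* (-0.711), *Pfkp* (-0.808), *Foxh1* (0.580), *Lefty1* (0.287) and *Gjb5* (-0.414) were among them, the first 3 with interleaved time points, while *Epcam* and *Cldn6* did pass. Without the 38 h cells *Fgf4*, *Tubb3*, *Lefty1*, *Eed*, *Gins2*, *Cdc20*, *Perp* and *Ddit3* did not pass, from -0.469 (*Perp*) to 0.500 (*Gins2*), and without those of 60 h *Gjb5*, *Dppa4*, *Dnmt3l*, *Sparc*, *Epcam*, *Esrp1*, *Ube2c*, *Pfkp* and *Igf2* did not, from -0.493 (*Sparc*) to 0.494 (*Epcam*). The average taken also matters. With the log10 of the mean RPKM + 1, 14 named genes no longer passed: *Tpt1p*, *Nr0b1*, *Zfp42*, *Fgf4*, *Dnmt3a*, *Dnmt3l*, *Tubb3*, *Lefty1*, *Epcam*, *Eed*, *Gins2*, *Cdc20*, *Perp* and *Ddit3*, with differences from -0.817 (*Tpt1p*) to 0.438 (*Lefty1*). Of these *Tpt1p*, *Nr0b1* (-0.520) and *Perp* (-0.585) were past 0.5 but had interleaved time points. With medians over cells 13 did not pass, among them *Gjb5* (-0.255), *Zfp42* (-0.459), *Fzd2* (0.435), *Acta2* (-0.455), *Sdhb* (-0.450), *Ndufa4l2* (-0.489), *Gdf15* (-0.253) and *Trib3* (-0.464). *Tubb3* (-1.09) and *Eed* (-0.518) were also among these, past 0.5 but with interleaved time points. With the 4 cells per time point nearest the median detection 14 did not pass, among them *Gjb5* (-0.487), *Dnmt3a* (0.347), *Sparc* (-0.356), *Cdc20* (-0.474), *Ass1* (-0.448), *H19* (-0.133) and *Lefty1* (0.556, interleaved). Other genes were added: with the log10 of the mean RPKM + 1 *Fgf5* (1.07) and *Eomes* (0.578) were higher and *Col1a1* (-1.17), *Klf4* (-1.05), *Tmem86a* (-0.987), *Zfp750* (-0.780), *Hand1* (-0.7085), *Efna1* (-0.582) and *Lifr* (-0.549) were lower, and *Dnmt1* (0.731) was higher with 4 cells per time point.

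Among markers of other cell types, fibroblast genes and *Tubb3* had the highest levels, with higher sums in stage 1. Of 10 fibroblast genes 8 were in the file, 2 were lower, *Acta2* (-0.661) and *Sparc* (-0.595), and none was higher, with a median of -0.252. Their summed mean RPKM was 271 at 0 h, 159 at 9 h, 41.6 at 38 h and 25.8 at 60 h, with *Sparc* the most abundant, at 117 at 0 h and 19.6 at 60 h. *Col1a1* passed 0.5 RPKM in 7 stage 1 cells and 1 stage 2 cell. *Pcolce*, *Lmna*, *Anxa2*, *H19* and *Igf2* moved the same way as this list, and its part in their decrease was not tested.

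No lineage gene of later steps was past the rule as higher in the cells. Of 14 early neural genes 1 was lower, *Tubb3*, a neuronal tubulin (-0.599), none was higher, and the median was -0.0086. Their summed mean RPKM was 316, 388, 112 and 168 in time order, nearly all of it *Tubb3*, while *Pax6*, *Zfp521* and *Meis1* stayed at or under 0.5 RPKM in all 32 cells. *Sox1*, the earliest neuroectoderm marker, passed 0.5 RPKM in 1 stage 2 cell. Of 13 mesoderm and endoderm genes 7 were in the file and none passed, with a median of 0.0036. Their sum was 2.67, 0.296, 4.53 and 4.16, mostly *Eomes* at 60 h, and *Mixl1*, *Mesp1* and *Lhx1* stayed at or under 0.5 RPKM. Of 8 trophectoderm genes 3 were in the file, with a median of -0.160 and a sum of 41.8, 1.69, 0.0986 and 13.1, led by *Ascl2*. Of 8 genes of the totipotent-like state marked by *Zscan4* genes 3 were in the file, with a median of -0.0992 and a sum of 0.0025, 9.42, 0 and 0.128, led by *Tcstv3*. The listed genes outside the file, such as *Gata6*, *Sox17*, *Cdx2* and *Gata3*, were not analysed here.

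The same genes were followed in the other 32 cells. The median over the 236 higher genes of their time-point means was 0.623 at 0 h, 0.536 at 9 h, 1.33 at 38 h and 1.29 at 60 h, and then 1.05, 0.917, 0.887 and 0.732 at 84, 106, 144 and 216 h. Of these genes 86 were highest at 38 h and 89 at 60 h, against 16, 13, 18 and 14 at the 4 later times. The 215 lower genes had medians of 1.05, 1.21, 0.453 and 0.410, followed by 0.537, 0.631, 0.613 and 0.583, and 42 of them were lowest at 38 h and 62 at 60 h, against 21, 19, 38 and 33 at the 4 later times. Since the rule used the stage 2 values, some return at later times follows from the choice of genes. *Dnmt3b* stood at 2.03 at 84 h and 0.230 at 216 h, and *Id3* at 1.16 and 2.27.

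Whole populations of the same culture were then set beside the cells. *Dnmt3b*, *Otx2* and most other formative genes were higher there too, and *Esrrb*, *Bcl3* and *Id3* were lower. The comparison took 5 SFEB libraries of 34, 38, 42.5, 54.5 and 60 h against 6 of 0 to 9 h (0 h in both sampling series, and 1, 2, 8 and 9 h) on log2(FPKM + 1), where FPKM counts fragments in place of reads. By limma with the series as a covariate and a Benjamini-Hochberg adjusted p under 0.05, 2051 of 12568 genes were higher (16.3%) and 2933 were lower (23.3%). Every library is 1 time point, so the spread within a group also holds change with time, and in whole populations fewer cells of a type and less RNA per cell cannot be told apart. Fold changes on this scale understate the change of low genes.

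Among the 6 early libraries *Dnmt3b* had its lowest, median and highest at 20.1, 30.0 and 66.3 FPKM, against 192, 373 and 494 FPKM in the 5 late ones. The groups did not overlap, and *Dnmt3b* rose by 3.34 on the log2 scale (SE 0.24, limma with Benjamini-Hochberg adjusted p = 1.09e-06). *Otx2* went from 8.73, 15.3 and 23.1 FPKM to 50.0, 59.9 and 68.8 FPKM, also without overlap, a rise of 1.83 (SE 0.19, limma, Benjamini-Hochberg adjusted p = 1.22e-05). Of the genes that led in the cells *Pim2* rose by 3.34, *Sall2* by 2.55, *Car2* by 2.45, *Gdf1* by 2.01, *Cldn7* by 1.81 and *Chaf1b* by 0.77 on the log2 scale. *Fgf5*, above 0.5 RPKM in 5 stage 2 cells, rose by 3.35. *Slc16a3* rose by 1.22 with a limma adjusted p of 0.0474 after Benjamini-Hochberg, and missed 0.05 in 11 of 16 alternative fits. *Anxa2* fell by 3.83, *Pcolce* by 2.81, *Bcl3* by 2.74, *Lmna* by 2.63, *Id3* by 2.53, *Esrrb* by 2.26 and *Zfp42* by 1.79 on the same scale.

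Of the 236 genes higher in stage 2 cells 106 were higher in the populations (44.9%), 12 were lower (5.08%) and 118 were not called, with a median log2 fold change of 0.30. Of the 215 lower genes 143 were lower (66.5%), 3 were higher and 69 were not called, with a median of -0.69. The shares stand beside 16.3% and 23.3% of all genes. Across 10865 genes in both tables the differences of the cells and the log2 fold changes of the populations had r of 0.385, a description over genes, which are not independent. The populations cover other hours besides those of the cells.

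**Figure D3:**
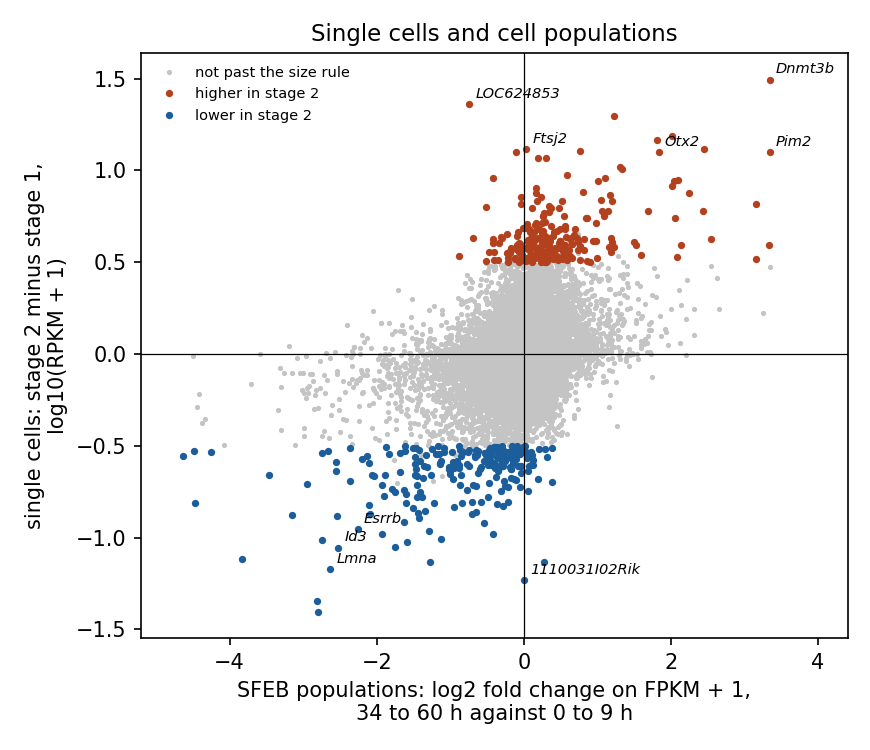
Difference of stage means in single cells (log10 scale, vertical) against the log2 fold change of the populations (34 to 60 h against 0 to 9 h, horizontal), 1 point for each gene in both tables. Genes past the size rule are coloured, and *Dnmt3b* and *Otx2* lie at the upper right with *Lmna* and *Id3* at the lower left.

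Several of the largest differences in cells were not called in the SFEB populations. *Ftsj2* changed by 0.04, *Ubxn6* by -0.11, *Hmox2* by 0.19, *LOC624853* by -0.74, *1110031I02Rik* by 0.00 and *Tpt1p* by 0.27 on the log2 scale, none of them past the limma threshold. *Fgf4* (-0.05), *Dppa4* (0.06) and *Dnmt3l* (-0.35) were not called either, nor were *Cdc20* (-0.18), *Birc5* (-0.05), *Ube2c* (-0.07), *Pmvk* (0.24), *Sdhb* (-0.23) and *Atp5j* (0.10). Without the 2 h library *Pmvk* (0.37), *Hmox2* (0.26) and *Tpt1p* (0.32) were called as higher. Genes called in the opposite direction were *Nat9*, *G6pc3*, *Tk2*, *Gjc1*, *Ext1*, *Poldip2*, *Plekhf1*, *Gde1*, *Mon1a*, *Kctd2*, *Ehd1* and *Dgat1*, higher in stage 2 cells and lower in populations, and *Trnt1*, *Cbx3* and *Siah1a*, lower and then higher. The largest fold change among these was that of *Gjc1*, a connexin gene, with 0.534 in cells and -0.88 on the log2 scale in populations.

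The lists were also counted in the populations, by the limma threshold, which has no size limit and so cannot be set against the size rule of the cells. Over all genes it gave 16.3% higher and 23.3% lower. In the formative list 19 of 20 genes were higher and none was lower (median log2 1.75), and in the naive list 14 of 19 were lower and none was higher (median -1.32). All 9 genes of the LIF and Stat3 list were lower (median -1.29). Of 24 S-phase genes 16 were higher (median 0.37), and of 21 cholesterol genes 14 were higher and 1 was lower (median 0.40). Other lists went both ways: of 14 Nodal genes 4 were higher and 3 lower (median 0.14), of 16 epithelial genes 8 and 4 (median 0.35), and of 13 early neural genes 4 and 3 (median -0.24). *Sox1* rose by 0.99 on the log2 scale (limma, Benjamini-Hochberg adjusted p = 0.00773) and *Eomes* by 0.61 (limma, Benjamini-Hochberg adjusted p = 0.0132), which with the first series alone was 0.43 and not called. Genes of G2 and M phase gave 2 higher and 1 lower of 24 (median -0.06), and of 87 ribosomal protein genes 2 were lower (median -0.10). Of 77 genes of oxidative phosphorylation 1 was higher and 9 were lower (median -0.10).

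The fibroblast list was high in the early populations as well. Its 10 genes summed to 1392 FPKM at 0 h of the parallel series and to 1307, 1261, 1030, 555 and 557 FPKM at 0, 1, 2, 8 and 9 h, against 113, 139, 90.3, 75.3 and 94.7 FPKM at 34, 38, 42.5, 54.5 and 60 h. Of the 8 genes tested 7 were lower, with *Col1a1* down to -4.37 and *Sparc* to -2.11 on the log2 scale. *Anxa2*, *Lmna*, *Pcolce*, *H19* (-4.25) and *Igf2* (-4.48) moved with this list, and its part in their decrease was not tested.

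An adherent culture of the same line in N2B27 medium on gelatin gave a further look at the genes chosen in the cells. Its 3 libraries of 35.5, 41.5 and 53.5 h were set against its 3 of 0, 2.5 and 8.5 h, with no test. Over 13738 genes 12.1% had all late libraries above all early ones and 18.7% had all below. Of the 236 genes higher in stage 2 cells 60 were all above (25.4%) and 34 all below (14.4%), and of the 215 lower genes 8 were all above (3.72%) and 95 all below (44.2%). *Dnmt3b* had its lowest, median and highest at 40.5, 42.0 and 57.2 FPKM early and 215, 246 and 383 FPKM late in this culture, and *Otx2*, *Pim2*, *Sall2*, *Cldn7* and *Slc16a3* were also above without overlap. *Id3*, *Bcl3*, *Lmna*, *Esrrb* and *Zfp42* were below without overlap, while *Arrdc4*, *Klf2* and *Chaf1b* overlapped. *Chaf1b*, higher in the stage 2 cells, had medians of 39.2 FPKM early and 36.4 FPKM late. Of the genes not called in SFEB populations, *LOC624853* was above without overlap, as in the cells, with its lowest, median and highest at 280, 318 and 329 FPKM early and 339, 450 and 578 FPKM late, *Birc5* was below as in the cells, and *Cdc20* was above, against the cells. Of the switched genes, *Cpsf4l* (-1.61 on the log2 scale), *Gjb5* (-2.21) and *Tmem86a* (-1.10) were called lower in SFEB populations. *Eomes* (0.61) was called higher there, so these genes moved as in the cells. In the adherent culture *Cpsf4l* and *Gjb5* were below without overlap, while *Tmem86a* and *Eomes* overlapped. *Zfp750*, switched off in the cells, was not called in SFEB populations (0.00 on the log2 scale) and was above without overlap here, with medians of 1.53 and 4.16 FPKM. *Alg10b* (0.47) and *Efna1* (-0.42) were not called in SFEB populations either and overlapped here, but *Efna1* was called in 7 of 16 alternative fits, among them those without 8 h (-0.48), 9 h (-0.54) or 60 h (-0.49), and *Alg10b* in 2, without 8 h (0.56) or 9 h (0.54). *Sox1* was also above without overlap, with medians of 1.48 and 12.2 FPKM.

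Promoters of the genes past the size rule resembled those of all genes. Over the 250 bases before the start of a gene the median number of CG dinucleotides was 14 for 233 higher genes, 12 for 214 lower genes and 15 for all 11316 genes placed, and the median GC share was 58.4, 57.6 and 59.2%. Single promoters differ far more. That of *Dnmt3b* (chr2:153474936-153475185, plus strand) holds 21 CG dinucleotides at 75.6% GC, that of *Otx2* (chr14:49287320-49287569, minus strand) 6 at 42.0%, that of *Id3* (chr4:135699162-135699411, plus strand) 5 at 46.4% and that of *Zfp42* (chr8:44392364-44392613, minus strand) 9 at 58.4%, all in NCBIM37. They are shown, 5′ to 3′ on the strand of the gene, since these genes mark both directions of the shift and show the spread of CG content, with each CG in capitals. The sequences describe the genes and were not tested against their levels.
Dnmt3b: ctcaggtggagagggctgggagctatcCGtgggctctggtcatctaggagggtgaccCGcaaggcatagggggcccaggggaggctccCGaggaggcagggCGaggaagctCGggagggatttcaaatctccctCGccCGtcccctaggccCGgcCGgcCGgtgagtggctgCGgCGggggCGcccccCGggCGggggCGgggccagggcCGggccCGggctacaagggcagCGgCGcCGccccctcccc
Otx2: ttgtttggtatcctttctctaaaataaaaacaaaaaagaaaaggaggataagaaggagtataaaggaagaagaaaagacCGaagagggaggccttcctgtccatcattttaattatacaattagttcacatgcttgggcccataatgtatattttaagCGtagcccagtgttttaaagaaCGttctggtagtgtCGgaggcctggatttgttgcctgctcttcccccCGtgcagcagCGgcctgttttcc
Id3: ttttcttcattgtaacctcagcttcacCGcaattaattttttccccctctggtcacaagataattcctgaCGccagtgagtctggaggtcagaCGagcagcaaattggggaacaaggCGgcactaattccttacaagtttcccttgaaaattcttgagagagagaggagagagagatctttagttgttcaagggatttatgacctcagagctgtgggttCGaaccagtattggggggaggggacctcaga
Zfp42: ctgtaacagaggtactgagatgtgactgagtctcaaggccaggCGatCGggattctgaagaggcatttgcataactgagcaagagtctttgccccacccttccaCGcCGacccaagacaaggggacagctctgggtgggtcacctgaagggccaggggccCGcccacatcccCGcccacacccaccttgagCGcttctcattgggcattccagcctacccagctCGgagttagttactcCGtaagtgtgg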

How the data were processed

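Per the deposited records, the authors' single-cell values are log10(RPKM + 1) after quantile normalization between cells, with genes above 0.5 RPKM in at least 8 of 64 cells kept, and they were used as deposited. The authors deposited FPKM of the SFEB populations after ComBat batch correction, a scale with 708 of 148951 values below 0, which were set to 0. FPKM of the adherent culture were deposited by the authors with no correction stated. The submitters' notes name TopHat2 2.0.8b, Cufflinks 2.1.1 and mm9, while the study's methods name earlier releases of both tools. The file of E14 cells was not used.

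Read depth was not analysed here, and the number of genes above 0 stands in for it. Means, SDs, differences and exact Clopper-Pearson intervals were computed with pandas 2.3.3, numpy 2.4.6 and scipy 1.17.1 under Python 3.11.15, and drawn with matplotlib 3.10.9. Populations were fitted in R 4.3.3 with limma 3.58.1 on log2(FPKM + 1), with trended empirical Bayes variance, the sampling series as covariate, genes at 1 FPKM or more in 3 or more libraries, and Benjamini-Hochberg adjustment at 0.05. All p-values are two-sided. For 1 of the 0 h populations the label gives no sample type, and its title put it with the earlier sampling series. Stages are those of the column names.

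Genes were named by a rule: both markers, the 12 largest differences each way past the size rule, up to 6 switched genes each way, the first 3 members of each list and up to 4 members past the size rule each way, and the most abundant member of each list of another cell type. A few genes that this rule names are not reported here. *Zic2*, *Pou3f1*, *Fbxo15*, *Dppa3*, *Nanog*, *Tcl1*, list members at or under 0.5 RPKM or outside the file, and the genes at the limit or of opposite direction were named after their values were seen. The members and lists were chosen with earlier results of these data known. Genes and promoters were placed on NCBIM37 with GENCODE M1, which held 98.8% of the genes. The procedures were run on simulated data to check the code. For the size rule the simulated shifts lay above the limit, in genes of high level and low spread, so error rates on these data were not measured. Alternatives covered the size limit, each time point left out, other averages, detection filters, and, for limma, the pseudocount, filter, covariate, trend, series and each library left out.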

Additional observations from a re-analysis of the deposited data

Results flagged for a closer look

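In 80 groups of cells or libraries 9 held a value far from the rest, and chance alone marks about 1 group in 20. At 0 h, cell 6 had 10437 genes above 0, where the other 7 had 8519 to 9120. Cell 1 of 0 h had *Dnmt3b* at 1.51, with the others at 0.111 to 0.765, and cell 2 of 0 h had *Esrrb* at 0.303, with the others at 1.63 to 2.36. At 60 h, cell 5 had 10292 genes above 0 (others 8422 to 9211) and a fibroblast list mean of 0.532 (others 0.0229 to 0.214). Among the early populations *Gdf1* was at 7.54 FPKM at 2 h of the first series, with the others at 2.46 to 3.87 FPKM. *Hmox2* at 29.8 FPKM (others 21.1 to 24.3) and *1110031I02Rik* at 7.68 FPKM (others 5.84 to 6.51) stood apart in that same library, and *Chaf1b* at 31.2 FPKM (others 22.2 to 25.4) at 0 h of the parallel series.

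*Perp*, a target of Trp53, was the single gene of 129 compared that moved in opposite directions in both cultures with no overlap of early and late libraries. In the adherent culture its median was 16.8 FPKM early and 22.1 FPKM late, and in SFEB culture 25.3 and 11.6 FPKM. The cultures were normalized in separate tables, and the difference between them was not tested.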

How the results depend on the processing

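No paired analysis was possible because cell numbers only name cells, the comparison of cells comes from no test, and population libraries are numbered in the order of their records. The number of genes higher and lower in stage 2 was 792 and 687 at a limit of 0.3, and 49 and 44 at 0.75. It was 489 and 611 without the 0 h cells, 388 and 378 without 9 h, 451 and 368 without 38 h, and 377 higher without 60 h, where fewer cells and time points have to meet the rule. With the log10 of the mean RPKM + 1 it was 521 and 657, and with medians over cells 487 higher. With the 4 cells of each time point nearest the median detection it was 441 and 354. That choice changed both the number of cells and their detection. The cause was not tested for the averages or for that choice. Without the 8 cells under 7500 genes, an alternative chosen after seeing the data, it was 289 and 248, of which 139 and 121 also passed with all 32 cells. At the limit of 0.5, 64 genes named by rule passed with all 32 cells. Of these 50 to 64 still passed under each alternative, and none of the 64 changed sign. Many of them were named because they passed in these same cells, so their sign was likely to hold. Of all 236 higher and 215 lower genes, 141 and 164 also passed with the log10 of the mean RPKM + 1. Without the 9 h cells 164 and 130 did, and with 4 cells per time point 146 and 128. Among named genes not past the rule signs did change, as with *Pou5f1*, at 0.631 without the 0 h cells and -0.0157 without those of 9 h. The formative list had 11 higher members at 0.3 and 3 at 0.75, and the naive list 3 lower members at 0.75. Genes apart at limits of 0.3 and 0.75 numbered 3448 and 404 from 0 to 9 h, 3227 and 350 from 9 to 38 h, and 2312 and 129 from 38 to 60 h. Genes switched on numbered 0 above 0.5 RPKM and 18 with 13 and 3 cells. Those switched off numbered 4 above 0.5 RPKM and 22 with 13 and 3 cells. In limma, leaving out each library gave 1458 to 2276 higher and 2373 to 3232 lower genes, and the first series alone 1477 and 2287.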

Other observations

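Beside the listed genes, *Tcfap2c*, which encodes the factor AP-2 gamma, was lower in stage 2 by a difference of -0.982. It was named after its values were seen. Its lowest, median and highest cells were at 0.326, 1.57 and 2.34 at 0 h, 0, 0.545 and 1.89 at 9 h, 0.0080, 0.151 and 0.776 at 38 h, and 0, 0 and 0.0900 at 60 h. It was above 0.5 RPKM in 13 stage 1 cells and 4 stage 2 cells, and its mean at 216 h was 0.822.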
